A study of Mus musculus with 6 samples.

Results

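Respiratory complex I is the entry enzyme of the mitochondrial electron transport chain, and its messenger RNAs were compared here between muscle lacking SPARC and wild type muscle. The genes were those whose probe sets carry a single platform symbol beginning with Nduf, with the brightest probe set taken for each gene. This gave 43 genes from 48 probe sets, out of 19938 genes on the array, and all 43 lay above the floor for dim genes. They comprised 6 core subunits, 28 accessory subunits, 7 assembly factors of the Ndufaf series, and Ndufa4 and Ndufa4l2, which belong to none of these classes. The accessory subunits Ndufb1 and Ndufb4 and the assembly factor Ndufaf8 were not analysed here as single genes.

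The samples were gastrocnemius (calf muscle) RNA of male mice aged 12 weeks, 3 homozygous Sparc knockouts (KO) and 3 wild types (WT), with 1 Affymetrix array each. SPARC is a secreted matricellular glycoprotein. KO and WT mice alike carry the strain label B6;129S-Sparctm1Hwe/J, which stands for mixed B6 and 129S stock, and the labels name no littermates and no batch. The design text speaks of each mouse, so an array was taken as a mouse, and the 3 arrays of a group measure the spread between these samples. RNA came from whole muscle, where fewer cells of a type and less RNA per cell cannot be told apart.

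Complex I oxidises NADH, passes the electrons through flavin and iron-sulphur centres to ubiquinone, and pumps protons across the inner mitochondrial membrane. Its core subunits carry out catalysis and are encoded partly in the nucleus and partly in mitochondrial DNA. The accessory subunits surround the core and stabilise it, and assembly factors join the modules of the enzyme without staying in it. The N module holds the NADH site, the Q module the path to ubiquinone, and the P modules form the membrane arm. Muscle fibres with high oxidative capacity are rich in the enzyme.

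The targeted transcript went with the labels. Sparc read 5.83 to 6.74 on the log2 scale in KO arrays, against 11.73 to 11.87 in WT arrays (limma log2 change -5.46 ± 0.20 SE, adjusted p = 2.08e-05). Median intensities were 40.5 to 44.7 per array. The skeletal muscle markers Acta1, Ckm and Myh4 read 12.66 or higher on every array. In all 3 the KO arrays lay below the WT arrays, as in 13.8% of tested genes (log2 changes -0.15, -0.28 and -0.08, none past the adjusted threshold). Of the 10 muscle markers listed, 8 were lower in mean and 2 higher, Myh1 at 0.43 and Myh2 at 0.24.

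Most complex I genes read slightly lower in KO muscle, and the accessory subunit Ndufs5 alone passed the test over all genes. The median log2 change over the 43 genes was -0.15, against 0.00 over the 16487 genes tested, and 38 of the 43 changes were negative, where 50% of all tested genes were. By limma, 1 of the 43 fell at an adjusted p under 0.05, where 0.673% of tested genes fell, and 0 rose, where 0.321% did. At an unadjusted p under 0.05, 8 were lower and 0 higher, against 10.3% and 8.16% of tested genes. The 3 KO arrays lay below the 3 WT arrays in 13 of the 43 genes (background 13.8%) and above them in 0 (background 11.1%). The count of calls was 0 without WT array 1 or 2, where 32 and 30 of the 16487 genes were called in all, and 5 without KO array 2, where 1017 were called, against 164 with all arrays. The median change was -0.08 without WT array 1 and -0.09 without KO array 3.

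**Figure D1:**
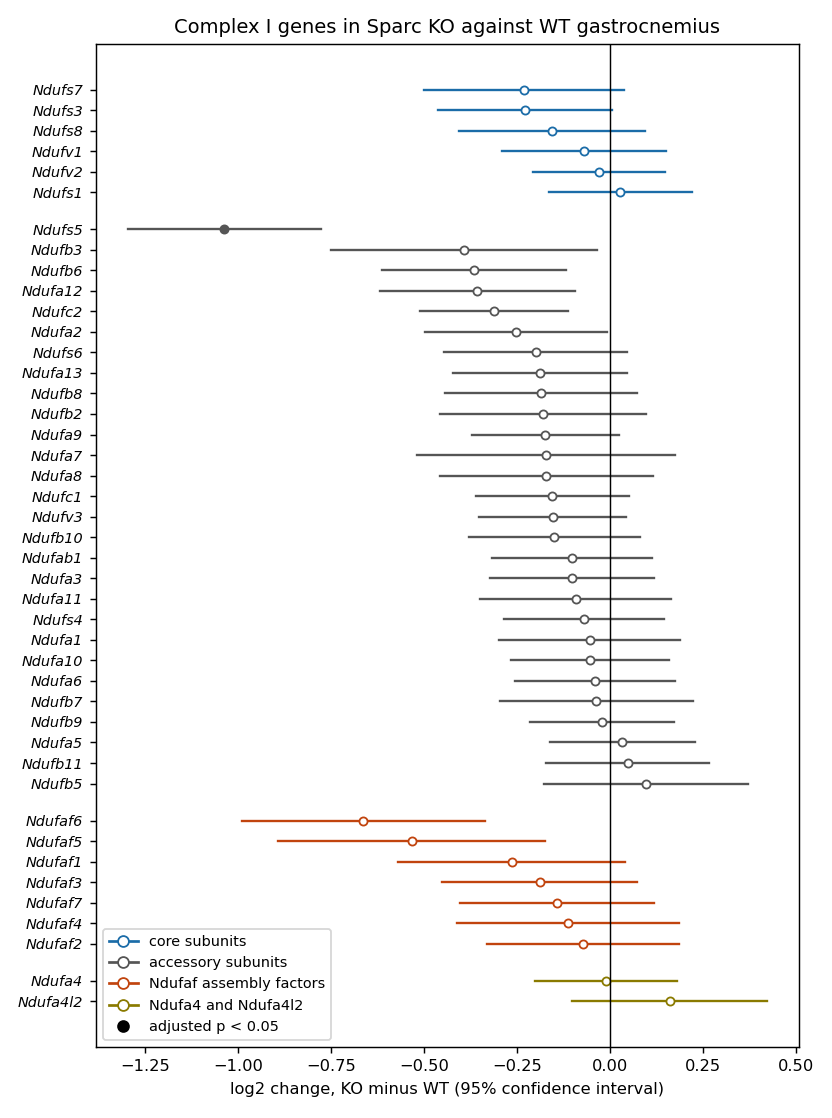
Log2 change (KO minus WT, x axis) of each complex I gene (y axis, grouped by class), with its 95% confidence interval from the limma fit on 3 KO and 3 WT arrays. The filled point is Ndufs5 at -1.04, the single gene past the adjusted threshold, and the intervals of 35 of the 43 genes include 0.

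Ndufs5 encodes a small accessory subunit of the membrane arm that faces the intermembrane space. It read 9.42, 9.38 and 9.06 in KO arrays 1, 2 and 3, against 10.41, 10.30 and 10.26 in WT arrays 1, 2 and 3. The highest KO array thus lay well below the lowest WT array. The mean was 9.29 ± 0.20 in KO and 10.33 ± 0.08 in WT muscle (SD, n = 3 each), a 2.05-fold lower level (log2 change -1.04 ± 0.11 SE, limma adjusted p = 0.00636). The call was lost without WT array 1 (change -0.99) and without WT array 2 (change -1.05), and the adjusted p over 16 alternatives ran between 0.00164 (array weights) and 0.287 (the gene read from its other probe set).

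A second probe set carries the symbols of both Ndufs5 and its pseudogene Ndufs5-ps, and it gave a smaller difference. It read 8.89, 8.92 and 8.87 in KO arrays, against 9.30, 9.03 and 9.03 in WT arrays. All KO arrays again lay below all WT arrays. The log2 change was -0.22 ± 0.10 SE (limma adjusted p = 0.326 over 26667 probe sets), with a 95% confidence interval of -0.46 to 0.01 that does not reach the -1.04 of the other probe set. The difference between the 2 probe sets within an array averaged 0.39 ± 0.18 in KO and 1.21 ± 0.08 in WT arrays (SD, n = 3 each). These do not overlap between the groups (two-sided exact permutation p = 0.1, the smallest that 3 against 3 arrays allow). Ndufs5 was followed up because its own probe set differed between the groups, so this test on the same arrays is not independent support. The 2 probe sets thus gave different sizes of the change, and signal from the pseudogene cannot be separated in the shared one. The positions of the probes, and whether B6 and 129S sequences differ under them, were not analysed here for either probe set.

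The Ndufs5 promoter is shown because this was the complex I gene that passed the test. RefSeq places it in GRCm38.p6 at chr4:123718187-123718436 on the minus strand, covering 250 bases up to the base before the annotated start. Capitals mark matches to motifs of 2 regulators of respiratory genes, searched on both strands without overlap between the matches. They are NRF1 (its core CGCANGCG), which starts at position -97 relative to the start, and the oestrogen-related receptors ERR (AAGGTCA), at position -228 on the opposite strand.
Ndufs5: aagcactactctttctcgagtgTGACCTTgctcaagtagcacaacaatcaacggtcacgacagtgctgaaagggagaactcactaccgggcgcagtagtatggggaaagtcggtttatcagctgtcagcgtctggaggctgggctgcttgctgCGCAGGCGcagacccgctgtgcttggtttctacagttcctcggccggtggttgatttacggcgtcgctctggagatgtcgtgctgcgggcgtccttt
The NRF1 letters occurred in 10 of the 38 complex I genes with a RefSeq promoter (Ndufa5, Ndufa7, Ndufa8, Ndufa11, Ndufa12, Ndufaf2, Ndufaf4, Ndufb10, Ndufs5 and Ndufs6) and in 6.76% of 32851 promoters. The ERR letters occurred in Ndufs5 and Ndufb2, and in 4.08% of promoters. Motifs of the ETS factor GABPA (CCGGAAG) and of YY1 (AANATGGCG) matched 4 and 2 of the 38, against 6.91% and 1.12% of promoters. Complex I matches were counted per gene and the percentages per promoter entry, so the units are unlike. These are matches of letters and not binding sites. No entry was found for Ndufa2, Ndufa4l2, Ndufaf6, Ndufb9 and Ndufs1.

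The nuclear-encoded core subunits showed small differences, none of which passed the test. Their median log2 change was -0.11, 5 of 6 were negative, and 0 had an unadjusted limma p under 0.05. Ndufs7, which carries the iron-sulphur cluster next to the ubiquinone site, read 11.38, 11.75 and 11.31 in KO arrays, against 11.76, 11.67 and 11.71 in WT arrays. KO array 2 lay within the WT values and the other KO arrays below them (change -0.23 ± 0.12 SE). Without KO array 2 the change was -0.37, and Ndufs7 then passed over all genes, and without KO array 3 it was -0.15.

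Ndufs3, a structural subunit of the Q module, read 10.69, 11.04 and 10.85 in KO arrays, against 11.12, 11.08 and 11.06 in WT arrays. The groups did not overlap, with KO array 2 only 0.02 below the lowest WT array. Its change was -0.23 ± 0.10 SE (adjusted p = 0.283). The other probe set of Ndufs3 gave -0.26 ± 0.10 SE. Ndufs8, an iron-sulphur subunit of the same module, stood at -0.16 ± 0.11 SE with overlapping groups. With 1 array left out, Ndufs3 ranged between -0.32 and -0.14 and Ndufs8 between -0.21 and -0.07.

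The 3 core subunits of the N module stayed closest to WT. Ndufv1, which binds NADH and flavin, read 9.51, 9.76 and 9.68 in KO arrays, against 9.77, 9.74 and 9.65 in WT arrays (change -0.07 ± 0.10 SE). Ndufv2, an iron-sulphur subunit, read 11.20, 11.24 and 11.22 in KO arrays, against 11.32, 11.23 and 11.19 in WT arrays (change -0.03 ± 0.08 SE). Ndufs1, the largest iron-sulphur subunit, read 10.42, 10.61 and 10.47 in KO arrays, against 10.46, 10.47 and 10.48 in WT arrays (change 0.03 ± 0.08 SE). The groups overlap in each of these 3 genes, and the 95% intervals of Ndufv1, -0.29 to 0.15, Ndufv2, -0.21 to 0.15, and Ndufs1, -0.17 to 0.22, bound the change that these arrays allow.

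**Figure D2:**
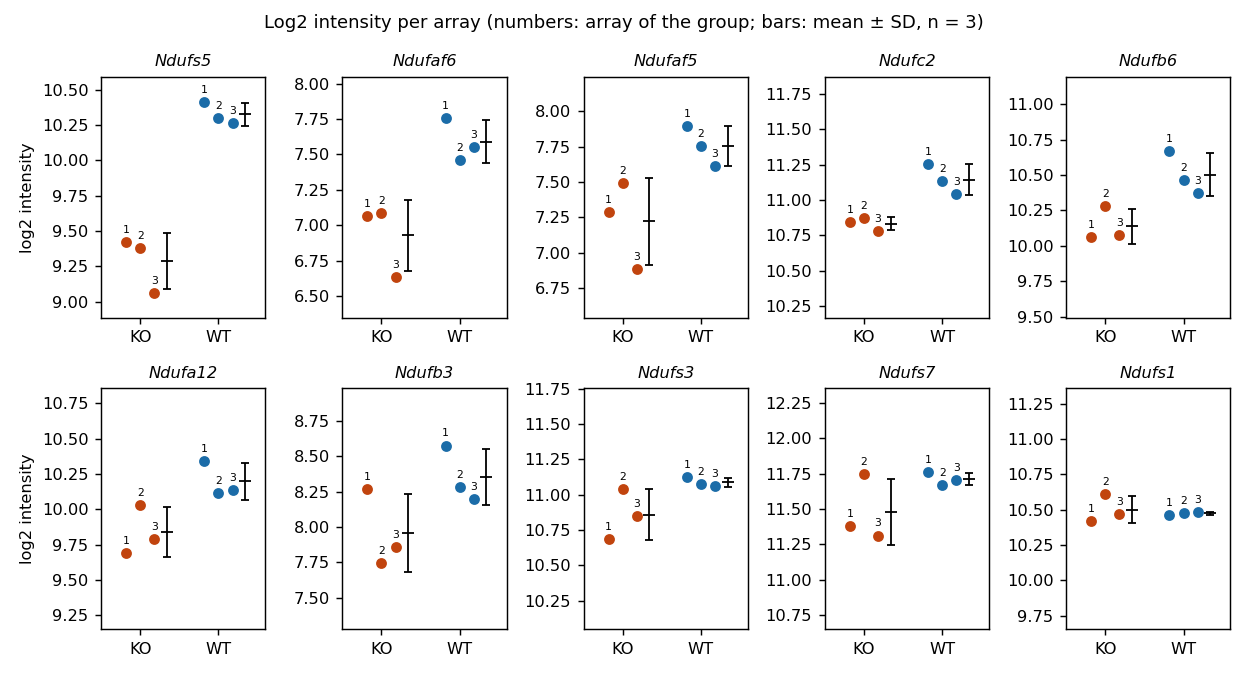
Log2 intensity (y axis, the same span in every panel) in KO and WT arrays (x axis) for 10 complex I genes, with numbers giving the array of the group and bars the mean ± SD (n = 3 each). In Ndufs5, with a change of -1.04, the nearest KO and WT arrays are 0.84 apart. Ndufaf6, Ndufaf5, Ndufc2, Ndufb6, Ndufa12 and Ndufs3 separate the groups by less, Ndufs3 by only 0.02. The groups overlap in Ndufb3, Ndufs7 and Ndufs1.

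Of the 28 accessory subunits, 25 had negative changes, with a median of -0.16 on the log2 scale. Beside Ndufs5, 5 were lower at an unadjusted limma p under 0.05 (background 10.3%), and none of these passed over all genes. Ndufc2, at the base of the membrane arm, read 10.84, 10.87 and 10.78 in KO arrays, against 11.26, 11.13 and 11.04 in WT arrays. The KO arrays lay together below every WT array (change -0.31 ± 0.09 SE, adjusted p = 0.122). Ndufb6, of the distal membrane arm, read 10.06, 10.28 and 10.07 in KO arrays, against 10.67, 10.46 and 10.38 in WT arrays. Again the groups did not overlap (change -0.37 ± 0.11 SE, adjusted p = 0.135).

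Ndufa12, an accessory subunit of the N module, read 9.69, 10.03 and 9.79 in KO arrays, against 10.34, 10.11 and 10.13 in WT arrays. All KO arrays were lower, with array 2 nearest to WT (change -0.36 ± 0.11 SE, adjusted p = 0.154), and without KO array 2 the change of -0.45 passed over all genes. Ndufb3, of the distal membrane arm, read 8.27, 7.75 and 7.86 in KO arrays, against 8.58, 8.28 and 8.20 in WT arrays. KO array 1 lay inside the WT range (change -0.39 ± 0.16 SE, adjusted p = 0.232). Ndufa2, a thioredoxin-fold subunit of the N module, read 9.70, 9.56 and 9.61 in KO arrays, against 10.07, 9.84 and 9.73 in WT arrays. Its groups were 0.02 apart at their nearest arrays (change -0.25 ± 0.11 SE, adjusted p = 0.256), and without WT array 1 the change was -0.16.

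The other 22 accessory subunits had log2 changes of -0.20 to 0.10, and the 3 positive ones were Ndufb5 at 0.10 ± 0.12, Ndufb11 at 0.05 ± 0.10 and Ndufa5 at 0.03 ± 0.09 (SE). Ndufb5 and Ndufb11 belong to the distal membrane arm and Ndufa5 to the Q module. The second probe set of Ndufb11 had the opposite sign, -0.07 ± 0.14 SE. For Ndufc1, Ndufab1 and Ndufa11 the second probe sets gave -0.16, -0.13 and -0.17, beside -0.16, -0.10 and -0.09 for those used. Ndufab1 is the mitochondrial acyl carrier protein, which complex I shares with fatty acid synthesis. The 2 probe sets shared by Ndufb4 and Ndufb4b, of the distal arm, gave -0.19 ± 0.10 and -0.17 ± 0.09 (SE).

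Sorted by module, the median changes were close to each other. They were -0.11 for 8 genes of the N module, -0.17 for 7 of the Q module, -0.16 for 9 of the proximal membrane arm and -0.15 for 9 of the distal arm. In the proximal arm 9 of 9 changes were negative, as were 7 of 8, 6 of 7 and 7 of 9 in the N, Q and distal modules. Apart from Ndufs5 in the proximal arm, no module held a gene past the adjusted threshold, and whether the modules differ was not tested.

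The Ndufaf assembly factors were all lower in mean, and 2 of them showed the largest differences among the 43 genes after Ndufs5. Their median change was -0.19, and 7 of 7 were negative, with 0 past the adjusted threshold. Ndufaf6, a factor needed early in the building of the enzyme, read 7.06, 7.08 and 6.63 in KO arrays, against 7.76, 7.46 and 7.55 in WT arrays. The groups were well apart, with KO array 3 the lowest. Its mean was 6.93 ± 0.25 in KO and 7.59 ± 0.15 in WT muscle (SD, n = 3 each), 1.58-fold lower (change -0.66 ± 0.14 SE, adjusted p = 0.0727). With array weights (change -0.62) and without KO array 2 (change -0.74) it passed over all genes.

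Ndufaf5, which in human cells hydroxylates an arginine of the core subunit NDUFS7, read 7.29, 7.49 and 6.89 in KO arrays, against 7.90, 7.76 and 7.61 in WT arrays. Its groups did not overlap either (change -0.53 ± 0.16 SE, adjusted p = 0.133). It was 1.45-fold lower, with -0.67 and a call without KO array 2, and -0.37 without KO array 3. Ndufs7 itself, the core subunit it acts on, stood at -0.23.

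Ndufaf1, a member of the assembly complex of the membrane arm, stood at -0.26 ± 0.13 (SE), reading 7.64, 7.85 and 7.42 in KO arrays against 7.94, 8.04 and 7.72 in WT arrays. KO array 2 lay inside the WT range, and the change was -0.37 without KO array 2 and -0.16 without KO array 3. Ndufaf3 and Ndufaf4, partners that bind the Q module, stood at -0.19 ± 0.12 and -0.11 ± 0.13 (SE). Ndufaf7, a mitochondrial protein arginine methyltransferase, stood at -0.14 ± 0.11 (SE). Ndufaf2, a paralogue of Ndufa12 that acts late on the N module, stood at -0.07 ± 0.11 (SE). In these 4 genes too the groups overlapped.

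Assembly factors outside the Nduf series showed differences of like size. All 12 measured, from a list of 13, had negative changes, where 50% of tested genes did, with a median of -0.26. Nubpl, 1 of the 12, read only 4.10 to 4.48, near the floor for dim genes of 3.90. The KO arrays lay below the WT arrays in 6 of the 12 (background 13.8%). None passed the adjusted threshold, and 6 were lower at an unadjusted limma p under 0.05 (background 10.3%). Dmac1, a factor for the distal membrane arm, had the smallest p. It read 9.55, 9.49 and 9.24 in KO arrays, against 9.85, 9.78 and 9.79 in WT arrays (change -0.37 ± 0.10 SE, adjusted p = 0.117). Tmem70, which acts in the assembly of complex I and of ATP synthase, read 9.12, 9.08 and 9.01 in KO arrays, against 9.46, 9.31 and 9.30 in WT arrays (change -0.29 ± 0.09 SE, adjusted p = 0.147). In both genes every KO array lay below every WT array. Ecsit, a partner of Ndufaf1, stood at -0.36 ± 0.12 (SE) and passed without KO array 2.

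Neither Ndufa4 nor Ndufa4l2 passed the test, adjusted or not. Ndufa4, named for complex I but found in cytochrome c oxidase, read 12.12, 12.14 and 12.06 in KO arrays, against 12.23, 12.12 and 12.01 in WT arrays. The groups overlapped (change -0.01 ± 0.08 SE), and the sign turned under a second quantile normalization (0.063) and with array weights (0.017). Ndufa4l2, a paralogue known as a target of hypoxia-inducible factor, read 7.71, 7.48 and 7.38 in KO arrays, against 7.50, 7.32 and 7.27 in WT arrays (change 0.16 ± 0.12 SE, adjusted p = 0.517). Of the core subunits encoded in mitochondrial DNA, ND3 was the one measured, at 0.05 ± 0.08 (SE).

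The arrays did not share the shift evenly. WT array 1 was the highest WT array in 40 of the 43 genes, against 29.4% of all tested genes. It was the highest of all 6 arrays in 33, against 14.3% of tested genes. KO array 3 was the lowest KO array in 27, against 33.9% of tested genes. Relative to each gene's WT mean, the median over the 43 genes was -0.08, -0.07 and -0.24 in KO arrays 1, 2 and 3, against 0.13, -0.04 and -0.06 in WT arrays 1, 2 and 3. In this median over all 43 genes, KO arrays 1 and 2 thus lay close to WT arrays 2 and 3. By class they were less alike. KO arrays 1 and 2 read -0.14 and 0.01 for core, -0.12 and -0.13 for accessory and -0.16 and -0.18 for Ndufaf genes. WT arrays 2 and 3 read -0.01 and -0.04, -0.06 and -0.07, and -0.06 and -0.05 for the same classes. Without WT array 1, 32 of the 43 changes were negative, and without KO array 3, 36 were. The median SD per gene was 0.132 in KO and 0.118 in WT arrays for these genes, against 0.163 and 0.0912 for all tested genes.

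**Figure D3:**
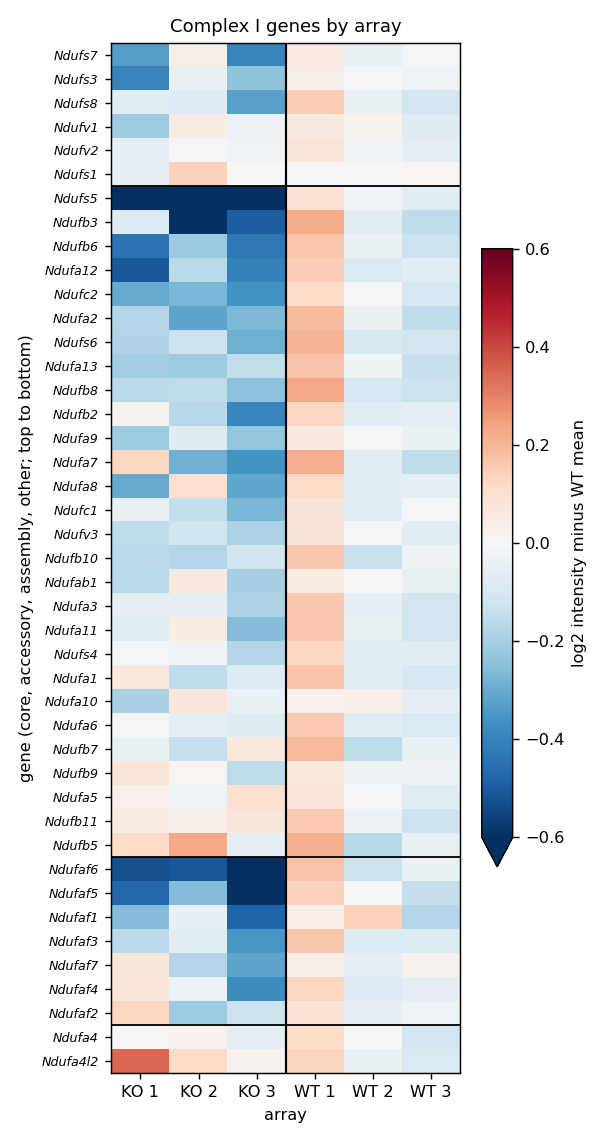
Log2 intensity minus the gene's WT mean (colour, blue lower and red higher, cut at -0.6) for each complex I gene (y axis) in each array (x axis). WT array 1 is the highest WT array in 40 of 43 genes, and KO array 3 the lowest KO array in 27.

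Complexes II to V, read side by side, had a median change of -0.06 over 40 genes, 26 of them negative, with 0 past the adjusted threshold. At an unadjusted limma p under 0.05, 6 were lower and 0 higher, against 10.3% and 8.16% of tested genes. The medians were -0.20 for complex II (4 genes), -0.13 for complex III (9), -0.03 for complex IV (12) and -0.04 for complex V (15). WT array 1 also stood highest there, at a median of 0.10 above the WT mean, and without it the median change turned to 0.01. The core, accessory and Ndufaf medians were -0.06, -0.08 and -0.13 without that array, all still below 0. Whether complex I differs from the other complexes was not tested.

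**Figure D4:**
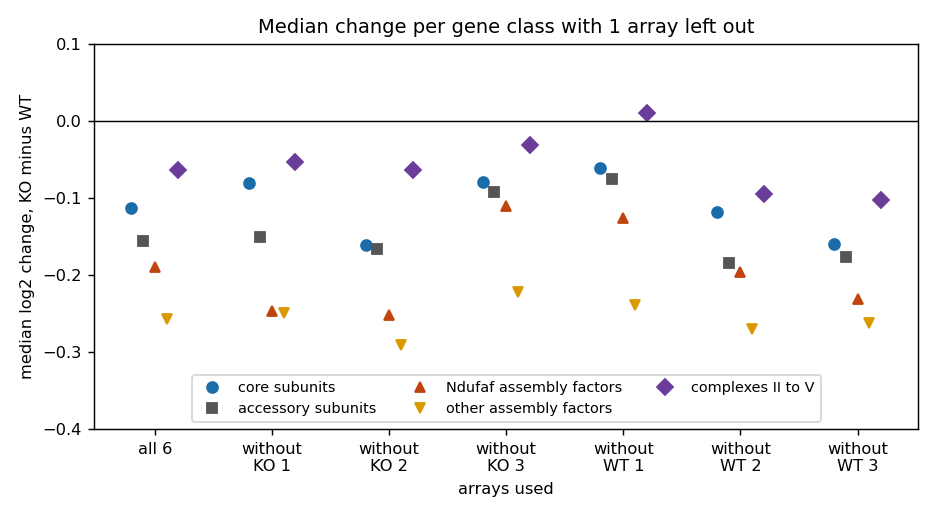
Median log2 change (KO minus WT, y axis) per gene class with all 6 arrays and with 1 array left out (x axis). The 3 classes of complex I genes stay below 0 in every case, between -0.25 and -0.06, and complexes II to V reach 0.01 without WT array 1.

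Marker lists of fibre type, mitochondria and other cells were read from the same fit. Skeletal muscle markers were negative in 8 of 10 genes, and in the same 8 the KO arrays lay below the WT arrays (background 13.8%). Their median change was -0.12, with 0 past the adjusted threshold and summed intensities of 64599 to 71805 in KO and 74236 to 74788 in WT arrays. The 2 positive ones were the fast myosins Myh1 at 0.43 ± 0.17 and Myh2 at 0.24 ± 0.15 (SE). Slow oxidative fibre markers were negative in 8 of 8 genes, with summed intensities of 3545 to 8923 in KO and 6388 to 7350.2 in WT arrays. Their medians relative to WT were -0.72, -1.08 and 0.38 in KO arrays 1, 2 and 3, so that KO array 3, the lowest for complex I, was the highest for slow fibre genes. Of these markers Myl3, a slow myosin light chain, fell (change -1.23 ± 0.18 SE, adjusted p = 0.0256). General mitochondrial genes were negative in 8 of 9, with a median change of -0.18 and summed intensities of 20154 to 22728 in KO and 23336 to 23664 in WT arrays. WT array 1 did not stand out in them, at a median of 0.003 above the WT mean. Fat cell markers were negative in 10 of 11, with sums of 9697 to 13282 in KO and 11485 to 14614 in WT arrays, and were low in WT array 1, at -0.41. Macrophage and tendon markers were positive in 10 of 10 and 7 of 7, with medians of 0.66 and 0.78 and sums of 3213 to 5829 and 5248 to 9428 in KO, against 2307 to 2571 and 3258 to 4661 in WT arrays. The part of these cell types in the complex I values was not tested.

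The design limits what could be seen. The half-width of the 95% interval was 0.18 to 0.36 over the 43 genes, and 33 of them had intervals within 0.5 of 0 on the log2 scale on both sides. The 43 genes lie on 15 chromosomes, 0 of them on chromosome 11, which holds Sparc. Next to Ndufs5, the tested neighbours Macf1, a cytoskeletal linker, and Akirin1, a nuclear protein, stood at 0.61 ± 0.14 and -0.29 ± 0.11 (SE, limma adjusted p = 0.0768 and 0.196). In neither did the groups overlap, with KO above WT in Macf1 (background 11.1%) and below it in Akirin1 (background 13.8%). The groups overlapped in the other 4 tested neighbours, Bmp8a, Oxct2a, Rhbdl2 and Mycbp, which stood at -0.03, 0.00, 0.21 and -0.05.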

How the data were processed

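The authors deposited 1 table of probe set intensities on a linear scale, which per the submitters' processing notes came from Affymetrix Expression Console (version 1.3.0.187) by RMA. The table has no detection calls, and the sources used here name no genome build. All 6 columns were used and 0 were left unmapped. Log2 of the intensity was taken with no offset, and RMA may understate changes of dim genes. Symbols came from the platform annotation, and all 43 complex I symbols matched RefSeq (GRCm38.p6) by Entrez ID. Probe sets with several symbols were left out of the gene table. The probe set with the highest mean stood for each gene, and genes under the 25th percentile of probe set means (3.90) were dropped, which left 16487.

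KO was compared with WT using limma 3.58.1 in R 4.3.3 (lmFit, eBayes with trend, two-sided), with Benjamini-Hochberg adjustment over all tested genes and a threshold of 0.05. On simulated data with 16487 genes for this comparison it recovered 22.9% of changes of 0.5 and 77.8% of changes of 1 on the log2 scale, and 3.85% of calls were false. The simulated noise was independent between genes, with the same spread in both groups. In the real arrays the median SD was 0.163 in KO and 0.0912 in WT, so these shares may not hold for them. No set test was run. The members, lists and tests were chosen with earlier results of these data known. The genes named are the core, Ndufaf and unclassed genes, accessory genes at an unadjusted p under 0.05, the 4 largest accessory changes each way, genes with several probe sets, and from other lists those past the threshold or the 2 with the smallest p. Ecsit, the neighbours of Ndufs5 and the promoter motifs were added after values were seen. The number of arrays, 3 per group, limits the precision. Alternatives covered normalization, dim filter, probe set choice, variance model, array weights, replicate block and leaving out each array.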

Additional observations from a re-analysis of the deposited data

How the results depend on the processing

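Over 27 complex I genes and 16 alternatives, 411 of 432 gene results kept their direction and their side of the threshold, 5 passed it, 3 no longer did and 13 changed sign. The count of complex I genes that fell was 1, and it was 2 with array weights (Ndufaf6 added), 0 with Ndufs5 read from the probe set shared with Ndufs5-ps, an alternative chosen after seeing the data (change -0.22), and 0 to 5 with 1 array left out. It was 0 without WT array 1 or 2 (0.194% and 0.182% of all tested genes called) and 5 without KO array 2 (6.17% called), where Ndufs7, Ndufa12, Ndufaf5 and Ndufaf6 joined. Leaving out 1 array gave 5 to 12 genes lower at an unadjusted p, 0 to 3 calls in the other pathway lists (Ecsit, Sdha and Timm23 without KO array 2) and a median of -0.10 to 0.010 for complexes II to V. Signs that turned were all of small changes: Ndufs1 (-0.014) and Ndufa5 (-0.0078) after median centring, Ndufa4 after a second quantile normalization (0.063) and with array weights (0.017), and Ndufb11 with averaged probe sets (-0.011). With 1 array left out they were Ndufv1 (-0.13 to 0.0027), Ndufv2 (-0.059 to 0.0070), Ndufs1 (-0.027 to 0.066), Ndufaf4 (-0.20 to 0.019), Ndufa4 (-0.066 to 0.044), Ndufa5 (-0.0012 to 0.070) and Ndufb11 (-0.015 to 0.13). Fewer samples enter the fits with an array left out, and why calls were lost in some of them and gained in others was not tested. Median centring moved the median change of all tested genes to -0.04. Over all tested genes, 164 passed, against 103 after median centring, 329 with array weights and 27 to 1017 with 1 array left out. With the replicate number as a replicate block, 1 complex I gene fell and Ndufs5 kept its call (adjusted p = 0.00988). Same-numbered arrays did not deviate together over all genes (correlations of 0.01, 0.08 and -0.02). A pairing with small effects, or effects on few genes, could give such values too, so this check cannot settle whether the numbers pair samples.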

Other observations

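Single genes of the other respiratory complexes and of general mitochondrial function, given as values, did not pass the adjusted threshold. Atp5e, the epsilon subunit of ATP synthase, had the largest change among complexes II to V, reading 9.23, 8.96 and 9.10 in KO arrays against 9.80, 9.53 and 9.44 in WT arrays. Its groups did not overlap (change -0.50 ± 0.12 SE, limma adjusted p = 0.0933). Atp5g2, which encodes the c subunit of the same enzyme, stood at -0.24 ± 0.10 (SE). Sdha and Sdhd of complex II stood at -0.34 ± 0.09 and -0.30 ± 0.11 (SE). Uqcr11 and Uqcr10 of complex III stood at -0.27 ± 0.11 and -0.25 ± 0.11 (SE). In complex IV, Cox5a stood at -0.20 ± 0.10 and Cox6a1, the isoform of non-muscle tissues, at 0.18 ± 0.10 (SE). Timm23, the channel of protein import through the inner mitochondrial membrane, read 11.30, 11.36 and 11.08 in KO arrays against 11.69, 11.59 and 11.61 in WT arrays (change -0.38 ± 0.09 SE, limma adjusted p = 0.0971). Tomm40, the channel of the outer membrane, stood at -0.30 ± 0.13 (SE).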
